A study of Rattus norvegicus with 8 samples.

Results

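Complement C1q and a group of macrophage marker genes were followed in rat skin after a scald burn. The group holds 8 genes out of the 26404 in the deposited table: the C1q chain genes C1qa (ENSRNOG00000012807), C1qb (ENSRNOG00000012749) and C1qc (ENSRNOG00000012804), and the myeloid genes Cd163 (ENSRNOG00000010253), Cd68 (ENSRNOG00000037563), Cd14 (ENSRNOG00000017819), Aif1 (ENSRNOG00000000853) and Itgam (ENSRNOG00000019728). They were picked by gene identifier, with burn and control values of these libraries already known, so their differences between the groups are given as a description and support nothing by themselves. The deposited table carries Ensembl identifiers without symbols. The symbols came with the choice of the 8 identifiers, and the pairing could not be checked here, because 0 of the 47357 genes in the reference table carry an Ensembl rat identifier. All 8 identifiers were found in the table, and all 8 passed the filter on low counts in the shared fit of 14240 genes.

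The burn libraries came from hind paws of anaesthetised Sprague-Dawley rats that had been held in saline at 60 °C for 2 min, a model of a deep partial-thickness burn. The control libraries came from the opposite paws, put in saline at room temperature at the same time. Each group had 4 libraries of poly(A)-enriched RNA from dorsal hind paw skin, cut out where microdialysis probes had been. The rats weighed 125 to 200 g and were under urethane at 1.5 g/kg, so the control paws shared the anaesthetic and the probes. The sources used here give neither age nor the time from burn to excision, and do not say which paws belonged to 1 rat. Whether each library of a group is a different rat is not stated either, so the spread given below is that between libraries.

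C1q starts the classical pathway of complement. It is built from A, B and C chains, each with a collagen-like stalk and a globular head, and the heads bind antibody on a target, some bacterial surfaces and dying cells. Most complement proteins are made in the liver, whereas C1q is made largely by macrophages and dendritic cells in the tissues themselves. In skin, resident macrophages of the dermis, many of them along blood vessels, are a known source.

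Depth ran from 13693811 to 18738652 counts in burn libraries and from 17824830 to 26837925 in control libraries. Abundance is given as normalised counts in CPM, the reads of a gene scaled to a common library total. The total was adjusted by TMM scaling, which corrects for a few very abundant transcripts taking up part of a library. One library stood apart. Burn replicate 3 had 15354 genes with at least 1 count, against 17322 or more in each of the other 7 libraries, and its scaling factor was 1.20, against 0.807 to 0.894 in the other burn libraries. Values without it are given below for each gene. The skin label could not be checked against keratinocyte, fibroblast or other cell markers, since no further identifiers carry a symbol.

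The 3 C1q chain genes were lower in every burn library than in any control library. Together they made up 25.3, 21.5, 7.51 and 11.4 CPM in burn replicates 1 to 4, against 222, 249, 154 and 243 CPM in control replicates 1 to 4. The mean of that sum was 16.4 ± 8.34 CPM in burn skin and 217 ± 43.7 CPM in control skin (SD, n = 4 each). In whole skin a loss of C1q-producing cells and a loss of C1q RNA per cell cannot be told apart.

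C1qa, which encodes the A chain, had 9.90, 6.63, 4.04 and 3.55 CPM in burn replicates 1 to 4, against 65.6, 68.1, 45.7 and 85.4 CPM in control replicates 1 to 4. The highest burn library, replicate 1, lay well under the lowest control library, replicate 3. The fitted log2 fold change, burn over control, was -3.46 (SE 0.37), a level 11.0 times lower in burn skin.

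C1qb, for the B chain, had 6.17, 4.90, 2.05 and 4.39 CPM in burn replicates 1 to 4, against 68.8, 79.7, 48.6 and 63.7 CPM in control replicates 1 to 4. Here burn replicate 3 was the lowest library and the groups were again far apart. The log2 fold change was -3.90 (SE 0.34), a level 15.0 times lower in burn skin.

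C1qc, for the C chain, had 9.21, 9.94, 1.42 and 3.43 CPM in burn replicates 1 to 4, against 87.7, 101, 59.4 and 93.7 CPM in control replicates 1 to 4. Its burn libraries were the most scattered of the chain genes, with replicates 1 and 2 high and replicates 3 and 4 low, at an SD of 1.29 log2 units in burn and 0.34 in control. The log2 fold change was -3.85 (SE 0.57), a level 14.4 times lower in burn skin. Without burn replicate 3 the log2 fold changes were -3.32 for C1qa, -3.67 for C1qb and -3.52 for C1qc.

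**Figure D1:**
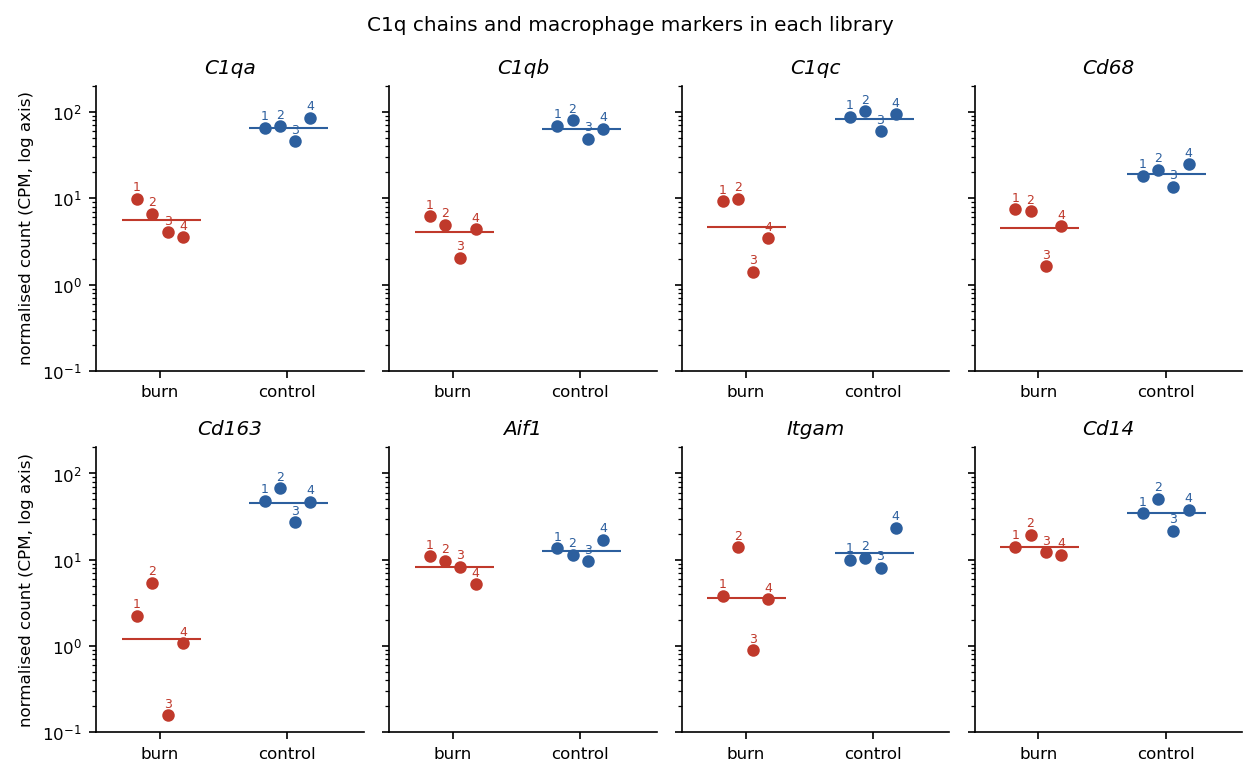
Normalised counts of the 8 genes in CPM on a log axis, 1 point per library with its replicate number, burn in red to the left of control in blue, and a line at the geometric mean of the 4 libraries. The C1q genes and Cd163 show the widest gaps between the groups, whereas Aif1 and Itgam overlap.

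Over the whole table, 10.0% of the genes tested were called lower in burn skin and 11.9% higher (edgeR quasi-likelihood test, adjusted p under 0.05, 14240 genes), and 15.6% were lower with no overlap between the groups. Of the 8 genes, 6 were called lower, all but Aif1 and Itgam, and 0 were called higher. The same 6 had no overlap. Of the 8, 4 were called at a level at least 4 times lower (C1qa, C1qb, C1qc and Cd163), beside 1.08% of all genes. With library size alone as the scaling, 6 were again called lower. That scaling gave 894 higher and 2138 lower calls over all genes, in place of 1689 and 1426, and put the median gene at a log2 fold change of -0.15, in place of 0.06. Since the genes were chosen with this contrast known, nothing is read from their counts. As a place in the table, 39 genes had a more negative log2 fold change than C1qa, 28 than C1qb and 29 than C1qc.

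The promoters of C1qa and C1qb are shown because the chain genes lie side by side. Shared control of the chain genes was not tested. In RefSeq for the GRCr8 rat assembly the order on chromosome 5 is C1qb, C1qc, C1qa, with 0 other genes in between. RefSeq promoter windows, from 250 bases before to 50 after the gene start, were held for 6 of the 8 genes. None was held for C1qc or Aif1, so the third chain gene could not be shown. Each window is printed 5′ to 3′ along its gene, which lies on the minus strand, at chr5:154419884-154420183 for C1qa and chr5:154407778-154408077 for C1qb in GRCr8.
C1qa: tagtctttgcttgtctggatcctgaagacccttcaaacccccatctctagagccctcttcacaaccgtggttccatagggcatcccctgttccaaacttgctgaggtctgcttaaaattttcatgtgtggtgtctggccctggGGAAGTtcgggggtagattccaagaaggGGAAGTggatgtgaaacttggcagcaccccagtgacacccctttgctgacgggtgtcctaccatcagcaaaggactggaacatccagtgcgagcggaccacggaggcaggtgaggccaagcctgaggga
C1qb: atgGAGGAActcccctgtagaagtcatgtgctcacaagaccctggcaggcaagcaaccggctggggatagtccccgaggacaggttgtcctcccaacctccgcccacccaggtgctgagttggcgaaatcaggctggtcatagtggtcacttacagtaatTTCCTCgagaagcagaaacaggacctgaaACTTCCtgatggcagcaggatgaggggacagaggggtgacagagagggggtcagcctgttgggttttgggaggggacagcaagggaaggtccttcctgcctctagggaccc
The capitals mark GAGGAA and GGAAGT, read on either strand, forms of the GGAA core that ETS factors bind, among them PU.1 of myeloid cells. The motifs share the letters GGAA and can overlap, but no match here does. C1qa held 2 matches to GGAAGT, starting 107 and 79 bases before the gene start, and 0 to GAGGAA. C1qb held 2 matches to GAGGAA, starting 247 and 90 bases before the gene start, and 1 to GGAAGT, starting 61 bases before it. Of the other windows, those of Itgam, Cd68 and Cd14 held GAGGAA 2 times each, Cd68 also held GGAAGT, and Cd163 held 0 matches to either motif. Such short motifs are common: 27.6% of all 33469 promoter windows of 300 bases held GAGGAA and 22.6% held GGAAGT. A match is a run of letters and not a measured site.

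Among the other myeloid genes only Cd163 had a log2 fold change as large as those of the C1q genes. Cd163 encodes the scavenger receptor for haemoglobin bound to haptoglobin and is the ED2 antigen by which resident macrophages are recognised in rat tissue. It had 2.26, 5.43, 0.157 and 1.08 CPM in burn replicates 1 to 4, against 48.4, 67.1, 27.1 and 47.1 CPM in control replicates 1 to 4. The value in burn replicate 3 rests on 3 reads, which is 0.189 CPM before TMM scaling, with an exact Clopper-Pearson 95% interval of 0.0389 to 0.551 that covers counting error only. The log2 fold change was -4.42 (SE 0.81), the most negative of the 8 genes, and was -4.02 without burn replicate 3. It depended more on burn replicate 2, the highest burn library, without which it was -5.43, and it was -5.33 by limma-voom.

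Cd68 fell less. Cd68 is a lysosomal glycoprotein of macrophages and other phagocytes, the ED1 antigen in rat. It had 7.47, 7.09, 1.63 and 4.76 CPM in burn replicates 1 to 4, against 18.2, 21.3, 13.5 and 24.7 CPM in control replicates 1 to 4. The groups did not overlap, and the log2 fold change was -1.90 (SE 0.44), or 3.73 times lower in burn skin. It was -1.60 without burn replicate 3. The call was lost without control replicate 2 or control replicate 4, at log2 fold changes of -1.86 and -1.76.

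Cd14, the co-receptor with which monocytes and macrophages sense bacterial lipopolysaccharide, fell with little scatter between burn libraries. It had 14.2, 19.6, 12.3 and 11.4 CPM in burn replicates 1 to 4, against 34.6, 51.3, 21.6 and 37.7 CPM in control replicates 1 to 4. The groups only just stood apart, burn replicate 2 being close under control replicate 3. The log2 fold change was -1.34 (SE 0.29), or 2.53 times lower in burn skin, and -1.27 without burn replicate 3. Cd14 was the 1 gene of the 8 with a smaller SD in burn, 0.34 log2 units, than in control, 0.52. Over all genes tested the SD was larger in burn for 84.0%.

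Aif1 and Itgam did not pass the threshold. Aif1 encodes IBA1, a calcium-binding protein that bundles actin in macrophages and microglia. It had 10.9, 9.74, 8.24 and 5.18 CPM in burn replicates 1 to 4, against 13.6, 11.5, 9.59 and 16.9 CPM in control replicates 1 to 4. Burn replicates 1 and 2 lay within the range of the controls. The log2 fold change of -0.60 (SE 0.29) was -0.59 without burn replicate 3.

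Itgam encodes CD11b, the alpha chain of the integrin that serves as complement receptor on neutrophils, monocytes and macrophages. It had 3.82, 13.9, 0.892 and 3.49 CPM in burn replicates 1 to 4, against 9.94, 10.6, 8.05 and 23.6 CPM in control replicates 1 to 4. Burn replicate 2 exceeded 3 of the 4 control libraries, while the other burn libraries lay below all of them. The log2 fold change was -1.24 (SE 0.72), and -0.88 without burn replicate 3. Without burn replicate 2 it was -2.27 and passed the threshold. Without control replicate 4, the highest control library, it was -0.79.

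**Figure D2:**
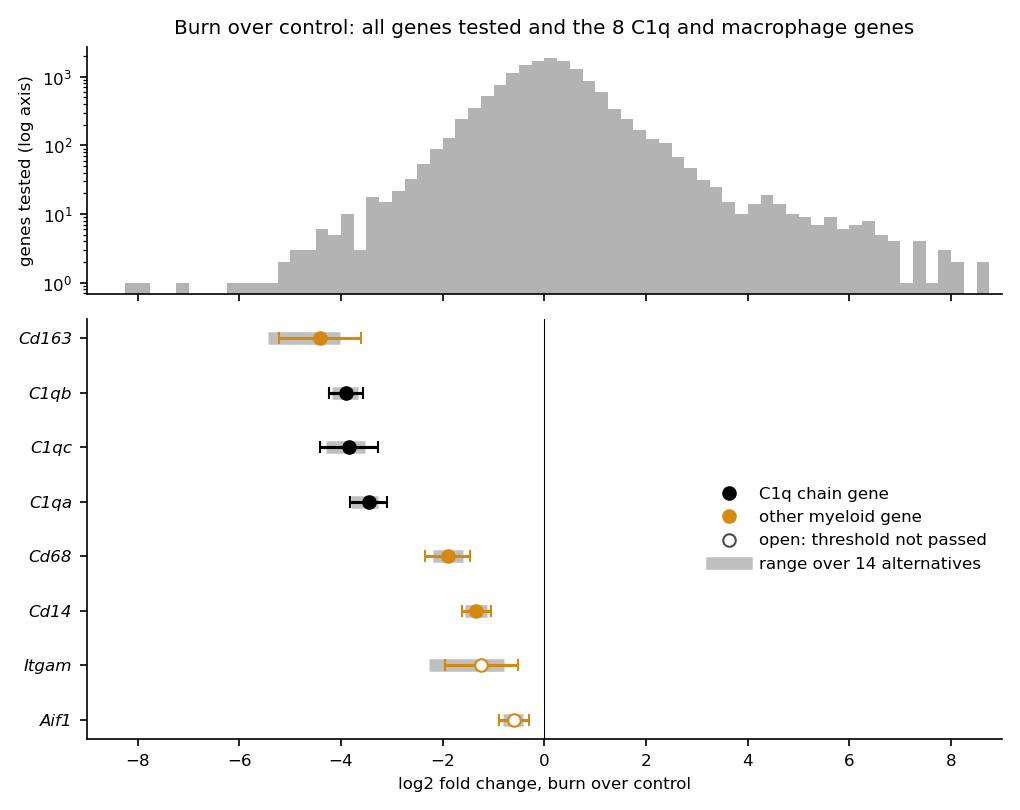
Log2 fold change, burn over control, of all 14240 genes tested (upper panel, number of genes per bin on a log axis) and of the 8 genes (lower panel, point with SE, filled where the threshold was passed, grey bar for the range over the 14 alternatives). The C1q genes and Cd163 lie between -4.42 and -3.46, Cd68, Cd14, Itgam and Aif1 between -1.90 and -0.60.

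C1q was then set against the other myeloid genes. The median log2 fold change was -3.85 over the 3 C1q genes and -1.34 over the other 5, beside 0.06 over all genes tested. The median of the other genes was -2.09 without burn replicate 2 and -1.83 by limma-voom. The difference of the medians, -2.51, was -2.24 without burn replicate 3 and -1.88 without burn replicate 2. No test was made of it, since the genes were chosen with these values in view.

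The order was much the same within each burn library. The departure of each gene from its own control mean averaged -3.08, -3.34, -4.89 and -4.19 log2 units over the C1q genes in burn replicates 1 to 4, and -1.74, -1.08, -3.33 and -2.37 over the other genes. C1q was thus the further down in all 4, with a mean difference of -1.74 ± 0.40 log2 units (SD, n = 4). In burn replicates 1, 3 and 4 the 4 genes Cd68, Cd14, Aif1 and Itgam each departed less than every C1q gene, and Cd163 departed more. In burn replicate 2 all 5 departed less, Cd163 at -3.03 beside C1qc at -3.07.

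**Figure D3:**
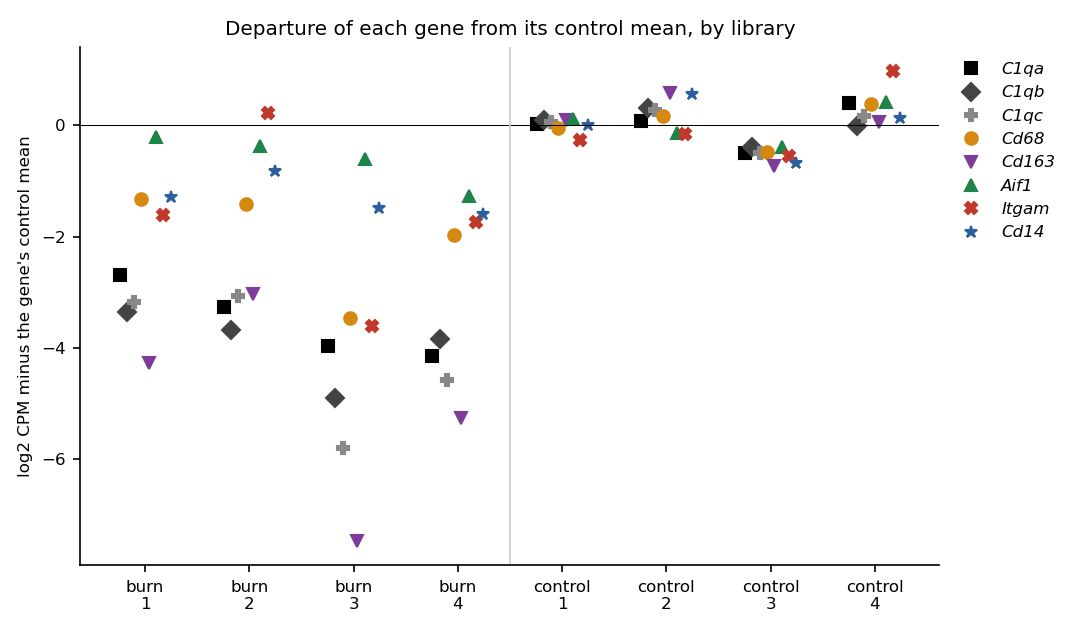
Log2 CPM of each gene minus its mean over the 4 control libraries, by library, 1 symbol per gene. In each burn library the C1q genes and Cd163 lie below Cd68, Cd14, Aif1 and Itgam, and Itgam in burn replicate 2 lies above 0.

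Ratios of read counts within a library show the same without any scaling between libraries. They are not corrected for transcript length, so they are compared between libraries only. For each read of C1qb there were 1.21, 1.45, 0.795 and 1.08 reads of Cd68 in burn replicates 1 to 4, against 0.265, 0.267, 0.278 and 0.387 in control replicates 1 to 4. The ratio of Cd14 to C1qb was 2.30 to 6.00 in burn and 0.444 to 0.644 in control, and that of Aif1 to C1qb 1.18 to 4.03 in burn and 0.144 to 0.266 in control. The ratio of Itgam to C1qb came closest to an overlap, with 0.436 as the lowest burn value and 0.370 as the highest control value. These 4 ratios were higher in every burn library than in any control library. For Itgam this held against C1qb but not against C1qa. Burn replicate 3 had 17 reads of Itgam and 77 of C1qa, a lower ratio than in control replicate 4, with 659 and 2385. The 0.436 rests on 17 reads of Itgam and 39 of C1qb.

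Cd163 to C1qb behaved otherwise. It was 0.366, 1.11, 0.077 and 0.247 in burn replicates 1 to 4, against 0.704, 0.842, 0.558 and 0.739 in control replicates 1 to 4, so that burn replicate 2 lay above all controls and the other burn libraries below. The 1.11 rests on 82 reads of Cd163 and 74 of C1qb, the 0.077 on 3 and 39. No counting interval was worked out for these ratios, so the part of counting error in their scatter is not known. Set against Cd68 instead, Cd163 was lower in all burn libraries. The ratio of Cd163 to Cd68 was 0.302, 0.766, 0.097 and 0.228 in burn replicates 1 to 4, against 2.65, 3.16, 2.00 and 1.91 in control replicates 1 to 4. The 0.097 rests on 3 reads of Cd163 and 31 of Cd68.

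The ratios between the chains overlapped between the groups and covered a wider range over the burn libraries. The ratio of C1qc to C1qb was 1.49, 2.03, 0.692 and 0.781 in burn replicates 1 to 4, against 1.28, 1.27, 1.22 and 1.47 in control replicates 1 to 4. Burn libraries fell on both sides of the control values. The exact 95% counting intervals were 1.10 to 2.05, 1.52 to 2.72, 0.408 to 1.16 and 0.542 to 1.12 in burn replicates 1 to 4, against 1.20 to 1.36, 1.20 to 1.34, 1.12 to 1.33 and 1.38 to 1.56 in control replicates 1 to 4. Some of these intervals overlapped between the groups and others did not. That of burn replicate 2 lay above those of control replicates 1 to 3. Those of burn replicates 3 and 4 lay below those of control replicates 1, 2 and 4. No test was made of the difference in spread. The ratio of C1qa to C1qb was 1.61, 1.35, 1.97 and 0.808 in burn replicates 1 to 4, against 0.954, 0.854, 0.940 and 1.34 in control replicates 1 to 4. C1qa to C1qc was 1.08, 0.667, 2.85 and 1.04 in burn replicates 1 to 4, against 0.671 to 0.911 in the controls. Burn replicate 3, with 77 reads of C1qa and 27 of C1qc, had an exact 95% counting interval of 1.82 to 4.60. The intervals of burn replicates 1 and 4, 0.818 to 1.41 and 0.707 to 1.52, reached into the control range. These intervals hold counting error within 1 library and not the spread between libraries, they treat reads as independent molecules, and the low C1q counts of 27 to 150 reads per chain in burn libraries limit what the ratios can show.

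**Figure D4:**
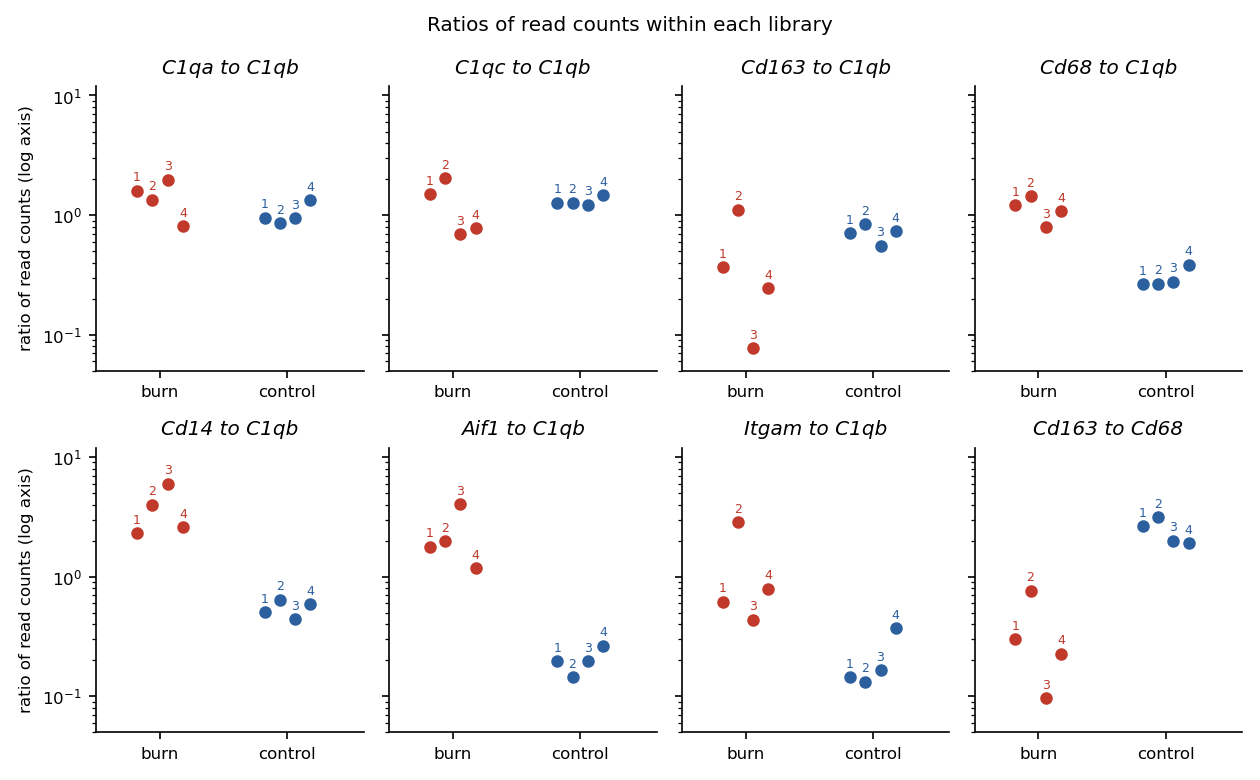
Ratios of raw read counts within each library on a log axis, 1 point per library with its replicate number, burn in red to the left of control in blue. Ratios of Cd68, Cd14, Aif1 and Itgam to C1qb are higher in every burn library, Cd163 to Cd68 is lower in every burn library, and ratios between the chains overlap.

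The order of the libraries within a group varied from gene to gene, apart from a few that were high or low throughout. In burn skin, replicates 1 and 2 lay above replicates 3 and 4 for all 8 genes in TMM-scaled CPM. On that scale replicate 3 was the lowest for 5 of the 8 genes and replicate 4 for the other 3. Replicates 1 and 2 were each the highest for 4. This order depended in part on the scaling factor of burn replicate 3. Before TMM scaling Aif1 had 9.20, 7.84, 9.87 and 4.62 CPM in burn replicates 1 to 4, so replicate 3 was the highest. Cd14 had 11.9, 15.8, 14.7 and 10.2 CPM, with replicate 3 above replicate 1. In control skin, replicate 3 was the lowest for all 8 genes, and replicates 2 and 4 were each the highest for 4. Control replicate 3 was also the shallowest control library. Of its counts, 9.29% lay in genes called higher in burn, against 7.18% to 7.50% in the other controls. In burn libraries the share ran from 15.6% in replicate 3 to 32.5% in replicate 2. The genes called higher were picked from these same libraries, so a larger share in burn than in control follows from the choice. The part of the lower depth and the larger share in the low macrophage values of control replicate 3 was not tested. Without control replicate 3 the log2 fold changes were -3.61 for C1qa, -4.03 for C1qb, -3.99 for C1qc and -4.62 for Cd163.

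The genes with the pattern most like C1q were sought by the root mean square difference from the mean C1q profile over the 8 libraries, each profile being log2 CPM minus its control mean. Of 12185 other genes with a mean of at least 1 log2 CPM, the nearest was ENSRNOG00000019890, at 0.43 log2 units. Its log2 fold change was -3.42 (SE 0.40), with departures of -2.53, -3.49, -4.20 and -3.47 in burn replicates 1 to 4. The next was ENSRNOG00000001821, at 0.46 log2 units, with a log2 fold change of -4.02 (SE 0.60). Neither identifier has a name in the files used here. Cd163 lay at 1.09 log2 units, which would rank it 38 among the 12185 genes. Cd68 lay at 1.31, Itgam at 1.71, Cd14 at 1.87 and Aif1 at 2.35, beside a median of 2.80 over all those genes. Because each profile is taken from its control mean, this distance follows in large part the size of the fall in burn libraries. The distances of the members thus partly restate their log2 fold changes.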

How the data were processed

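The authors deposited raw read counts for each Ensembl rat gene in each library. The submitters' processing notes list the build Rnor_5.0 and the tools HTSeq 0.5.4p3, TopHat2 2.0.9, limma, edgeR and R 3.0.1. What each did, the annotation release and the strand setting are not stated, so reads of overlapping or antisense genes could not be separated. Libraries were grouped by treatment label and numbered in accession order.

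All 26404 rows were fitted together with edgeR 4.0.16 in R 4.3.3 (default expression filter, TMM, robust quasi-likelihood test, group as the only term, Benjamini-Hochberg adjustment over 14240 genes, threshold 0.05), after the procedure was tested on simulated data. The SE is the log2 fold change divided by the square root of F. Log2 CPM used a prior count of 2. Alternatives were RLE factors, library size alone, 2 other filters, DESeq2 1.42.0, limma-voom (limma 3.58.1) and leaving out each library. The genes, gene lists and motifs were chosen with earlier results of these data known. All 8 genes are named by rule, with the 2 nearest other genes by identifier. Preset lists of complement and cell type genes were not used here, because identifiers carry no symbols. Promoter sequences are from RefSeq, GRCr8. Intervals cover counting error only.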

Additional observations from a re-analysis of the deposited data

How the results depend on the processing

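Under 14 alternatives the 8 genes gave 112 refitted log2 fold changes, of which 112 were below 0 and 109 kept their side of the threshold. Over all genes tested the median ran from -0.15 with library size alone to 0.10 with no filter. The refits share libraries with the main fit and the genes were chosen with this contrast known, so their agreement is description only. The exceptions were Cd68, which missed it without control replicate 2 (-1.86) and without control replicate 4 (-1.76), and Itgam, which passed it without burn replicate 2 (-2.27). Leaving out 1 library gave 5 to 7 of the 8 genes called lower and 0 called higher in each refit. Over all genes the same refits called 546 to 1929 lower and 673 to 2314 higher. The main fit called 1426 lower and 1689 higher, of 14240 genes. Leaving out 1 library also gave a Cd68 value of -2.12 to -1.60 and an Itgam value of -2.27 to -0.79. The C1q median minus the other median was then -2.78 to -1.88, the last without burn replicate 2. The median of the other 5 genes was -2.09 without burn replicate 2. Cd163 moved by over 1.5 times by limma-voom, to -5.33, and without burn replicate 2, to -5.43. Itgam also moved under both, from -1.24 to -1.83 by limma-voom and to -2.27 without burn replicate 2. Over all genes, library size alone called 894 higher, and the DESeq2 Wald test called 2379 higher and 2203 lower. The cause of the changes in all-gene calls was not tested. No paired analysis was possible because the labels give no animal number. Depth limits Cd163 in burn replicate 3, at 3 reads, and the ratios between the C1q chains in burn libraries.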
